A study of Mus musculus with 10 samples.

Results

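The genes described here are the 9 that carry interleukin-6 (IL-6) and oncostatin M signalling in a healing wound, chosen by symbol: the ligands Il6, Osm, Lif and Il11, the receptor chains Il6ra, Il6st and Osmr, the transcription factor Stat3 and the feedback inhibitor Socs3. Each had 1 array feature naming no other gene, among 30743 genes with such a feature. The levels come from skin wounds of male db/db mice, whose leptin receptor is defective so that they are obese and diabetic. The labels give the genotype as BKS(D)-Leprdb/JOrlRj and the strain background as C57BL/6. At 11 weeks of age each mouse received 2 full-thickness back wounds from a 4 mm punch, and 0.5 nmol of mimic in a delivery reagent was injected into 4 places around each wound straight afterwards. All mice had isoflurane anaesthesia and buprenorphine for pain. The miR-132 group (5 mice) got a miR-132 mimic, a synthetic RNA that acts as the mature microRNA, and the control group (5 mice) a control mimic. Whether a sample joined both wounds of a mouse is not stated in the labels, and below the sample of a mouse is called a wound. Wound-edge biopsies were taken 6 days later, so a measured level averages keratinocytes, fibroblasts, leukocytes, fat and muscle of the edge, and the design asks what extra miR-132 changes in this diabetic tissue.

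Cytokines of this family signal through gp130, the shared receptor chain encoded by Il6st. IL-6 reaches it through Il6ra, interleukin-11 through its own receptor, LIF through Lifr, and oncostatin M in the mouse mainly through Osmr. The paired receptors activate JAK kinases, which phosphorylate STAT3, and STAT3 switches on Socs3, whose protein binds gp130 and shuts the kinases off. In skin, IL-6 and keratinocyte STAT3 are known to be needed for timely wound closure in mice, while oncostatin M, made mostly by neutrophils, macrophages and T cells, makes human keratinocytes migrate and express antimicrobial genes.

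The supplied microRNA is shown because its seed, bases 2 to 8 and in capitals below, decides which messenger RNAs it can pair with. RefSeq (GRCm38.p6) places mature miR-132-3p at chr11:75173723-75173744 and its neighbour miR-212-3p at chr11:75173443-75173464, both on the plus strand. The seeds are identical, and of 1738 mature mouse microRNAs in the table only these 2 carry it.
miR-132-3p: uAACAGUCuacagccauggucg
miR-212-3p: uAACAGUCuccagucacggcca
The array feature for the Mir132 precursor measured 3.38 ± 0.41 in miR-132 wounds and 3.21 ± 0.25 in control wounds (log2 signal, SD, n = 5 each), close to the array's background features, whose median ran from 3.16 to 3.36 on miR-132 arrays and from 3.05 to 3.23 on control arrays. It is built on the gene's own transcript and so gives no check of the mimic's uptake.

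At 6 days the ligand levels of the groups interleaved. The receptor chains Osmr and Il6ra, the transcription factor Stat3 and its feedback target Socs3 averaged lower in miR-132 wounds. For each of them all 5 miR-132 arrays lay under the mean of controls. The share of all genes with that trait was not counted, and genes that differed less also had it, such as Adam17 at 1.20-fold lower. Stat3 averaged 1.58-fold lower, Osmr 1.55-fold, Socs3 1.33-fold and Il6ra 1.29-fold. None passed the test used across the array. Marker levels of several cell types also differed on average, by -0.55 on the log2 scale over the 6 keratinocyte markers and -0.53 over the 8 neutrophil markers that passed the level filter and stayed below the signal limit, by -0.34 over 10 muscle markers and by 0.64 over 9 adipocyte markers. The groups overlapped in each of these lists. The mean keratinocyte marker level ran from 10.23 to 11.36 in miR-132 wounds and from 10.79 to 11.98 in control wounds. The part of these cells in the differences was not tested. That test is limma's moderated test on log2 signal, fitted over 17641 genes whose mean level lay above 4.17, with p-values adjusted by Benjamini-Hochberg and called under 0.05. It called 0 genes in either direction (0% of those tested), and the lowest adjusted p of any gene was 0.596. An exact permutation test over the arrays also called 0 after adjustment. Without adjustment limma held 1427 genes under 0.05, and without miR-132 replicate 3 it called 52 genes, none of them a member. At an unadjusted p under 0.05 limma held 4 of the 8 members that passed the level filter, all lower, where 5.61% of all genes were lower and 2.48% higher by that rule (8.09% in all). Brighter genes leaned further down, with 8.3% lower and 0.757% higher among the 10299 genes whose mean lay above 5.66, a range that holds Osmr, Stat3, Il6ra, Il6st and Osm. In 0 of the 9 members were the groups free of overlap, against 0.646% (lower) and 0.283% (higher) of all genes.

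**Figure D1:**
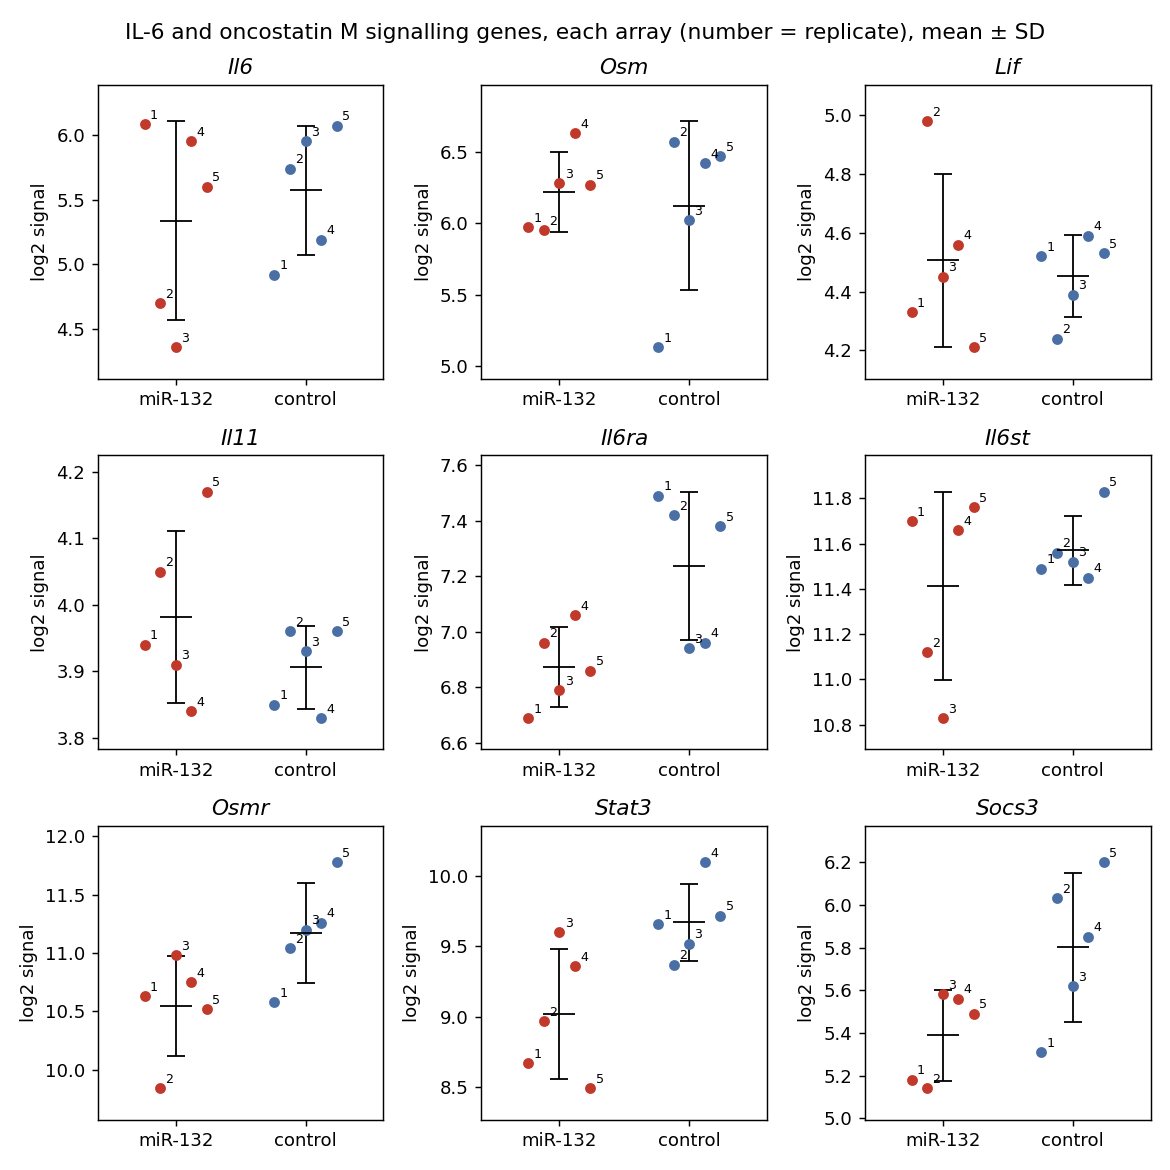
Log2 signal (vertical axis, own range per panel) of each gene on every array, miR-132 wounds in red and control wounds in blue, numbered by replicate, with the group mean and SD as black bars. The 5 miR-132 arrays of Il6ra, Osmr, Stat3 and Socs3 lie below the control mean, while the groups of Il6, Osm, Lif and Il11 interleave.

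Osm, the ligand that signals through Osmr, measured 5.97, 5.95, 6.28, 6.63 and 6.27 on miR-132 replicates 1 to 5 (log2 signal), against 5.13, 6.57, 6.02, 6.42 and 6.47 on control replicates 1 to 5. All miR-132 arrays lay inside the control range except replicate 4, which was the highest of all 10, and control replicate 1 was by far the lowest. The log2 difference was 0.10 ± 0.27 (moderated SE, n = 5 per group), with a 95% interval of -0.50 to 0.70 and limma's adjusted p at 0.945. Without control replicate 1 it was -0.15. That wound also had the lowest level of the 8 neutrophil markers, a mean log2 level of 6.06. The same markers ran from 6.47 to 7.14 on miR-132 arrays and from 7.16 to 8.53 on the remaining control arrays. The part of neutrophil number in the Osm levels was not tested, and in whole biopsies fewer cells of a type and less RNA per cell cannot be told apart.

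Il6, the founding cytokine of the family, measured 6.08, 4.70, 4.36, 5.95 and 5.60 on miR-132 replicates 1 to 5, against 4.92, 5.74, 5.95, 5.19 and 6.07 on control replicates 1 to 5 (log2 signal). The miR-132 wounds split, with replicates 2 and 3 below every control array and replicate 1 above every control array. Its groups differed by -0.24 ± 0.37 on the log2 scale (SE, n = 5 per group), the interval -1.07 to 0.59 and limma's adjusted p 0.887. Without miR-132 replicate 3 it was 0.0085. Fibroblast markers were also lowest in those wounds, with a mean log2 level of 14.6 in miR-132 replicate 2 and 14.5 in replicate 3. They stood at 15.3 to 15.5 in the other miR-132 wounds and at 14.9 to 15.2 in control wounds. Their part in the Il6 levels was not tested.

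Lif, leukaemia inhibitory factor, was dim at 4.21 to 4.98 (median 4.45) in miR-132 wounds and 4.24 to 4.59 (median 4.52) in control wounds, on the log2 scale. The groups overlapped, with miR-132 replicate 2 the highest and replicate 5 the lowest of all arrays. Its log2 difference was 0.05 ± 0.14 (SE, n = 5 per group; interval -0.25 to 0.36; limma's adjusted p of 0.942). When the hybridisation spike-ins, which ran higher on miR-132 arrays, entered the fit it was 0.29, and without miR-132 replicate 2 it was -0.0665. Lif is the next gene to Osm on chromosome 11 in RefSeq, with 0 annotated genes between them. Il11, which signals in fibroblasts and bone, had a mean level of 3.94 over all arrays and was the member that missed the level filter. It measured 3.84 to 4.17 in miR-132 wounds and 3.83 to 3.96 in control wounds, and differed by 0.08 ± 0.07 (log2, SE, n = 5 per group) in a fit without the filter.

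Among the receptor chains, Osmr measured 10.63, 9.84, 10.98, 10.75 and 10.52 on miR-132 replicates 1 to 5, against 10.58, 11.04, 11.20, 11.26 and 11.78 on control replicates 1 to 5 (log2 signal). Every control array except replicate 1 lay above every miR-132 array. The means were 10.54 ± 0.43 in miR-132 wounds and 11.17 ± 0.43 in control wounds (SD, n = 5 each). The log2 difference was -0.63 ± 0.26 (SE; interval -1.22 to -0.04), with limma's unadjusted p at 0.0385 and adjusted p at 0.597. An exact permutation test over the 10 arrays gave a two-sided p of 0.0397, where the smallest it can give is 0.00794. Of the 8 members past the level filter, 2 (Osmr and Stat3) had an exact p under 0.05, as did 7.2% of all genes tested. The difference was -0.39 without miR-132 replicates 2 and 5, the arrays with the narrowest signal range, and -0.99 when the hybridisation spike-ins entered the fit as a covariate. That covariate ran from 10.57 to 10.98 on miR-132 arrays and from 10.43 to 10.61 on control arrays. It is thus partly confounded with the group, and a fit with it cannot separate them.

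Il6ra, the chain that binds IL-6 itself, measured 6.69, 6.96, 6.79, 7.06 and 6.86 on miR-132 replicates 1 to 5, against 7.49, 7.42, 6.94, 6.96 and 7.38 on control replicates 1 to 5. Control wounds formed a higher set (replicates 1, 2 and 5) and a pair within the miR-132 range (replicates 3 and 4). Its groups differed by -0.37 ± 0.13 on the log2 scale (SE, n = 5 per group; interval -0.66 to -0.07), with limma's unadjusted p at 0.0210, adjusted p at 0.596 and an exact permutation p of 0.0556.

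Il6st, the shared gp130 chain, measured 11.70, 11.12, 10.83, 11.66 and 11.76 on miR-132 replicates 1 to 5, against 11.49, 11.56, 11.52, 11.45 and 11.83 on control replicates 1 to 5. In 3 of 5 miR-132 wounds it was above the control mean, and the mean was pulled down by replicates 2 and 3, which had also been lowest for Il6. The log2 difference was -0.16 ± 0.20 (SE, n = 5 per group), with an interval of -0.60 to 0.29 and limma's adjusted p at 0.853. After a further quantile normalization it was 0.03, without miR-132 replicate 3 it was -0.01 and without miR-132 replicate 5 it was -0.24.

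**Figure D2:**
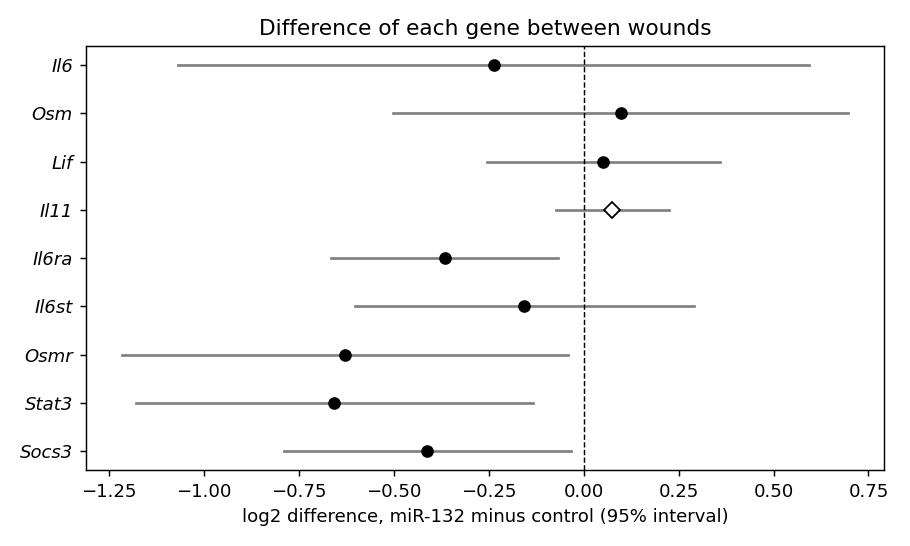
Log2 difference of each gene, miR-132 minus control (horizontal axis, points), with its 95% interval from limma as grey lines; the open diamond is Il11, which missed the level filter. The intervals of Il6ra, Osmr, Stat3 and Socs3 lie below 0 before any adjustment, and the others span 0.

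Stat3, the transcription factor on which the receptors converge, measured 8.67, 8.97, 9.60, 9.36 and 8.49 on miR-132 replicates 1 to 5, against 9.66, 9.37, 9.52, 10.10 and 9.72 on control replicates 1 to 5 (log2 signal). Of the miR-132 arrays only replicate 3 lay within the control range, and replicate 4 lay just under it. The means were 9.02 ± 0.46 in miR-132 wounds and 9.67 ± 0.27 in control wounds (SD, n = 5 each). Between the groups it differed by -0.66 ± 0.23 on the log2 scale (SE; interval -1.18 to -0.13), the largest among the members, with limma's unadjusted p at 0.0191 and adjusted p at 0.596. The exact permutation p was 0.0317. Without miR-132 replicate 3 the difference was -0.80 and limma's adjusted p 0.149, the lowest that any member reached under the alternatives, whose range for Stat3 was 0.149 to 0.836.

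Socs3, the STAT3-induced inhibitor, measured 5.18, 5.14, 5.58, 5.56 and 5.49 on miR-132 replicates 1 to 5, against 5.31, 6.03, 5.62, 5.85 and 6.20 on control replicates 1 to 5. All control arrays but replicate 1 stood above every miR-132 array, the same split of wounds as for Osmr. Its log2 difference came to -0.41 ± 0.17 (SE, n = 5 per group; interval -0.79 to -0.03), with limma's unadjusted p at 0.0355, adjusted p at 0.596 and an exact permutation p of 0.0556. It was -0.68 when the hybridisation spike-ins, which differ between the groups, entered the fit, and -0.31 without control replicate 5.

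**Figure D3:**
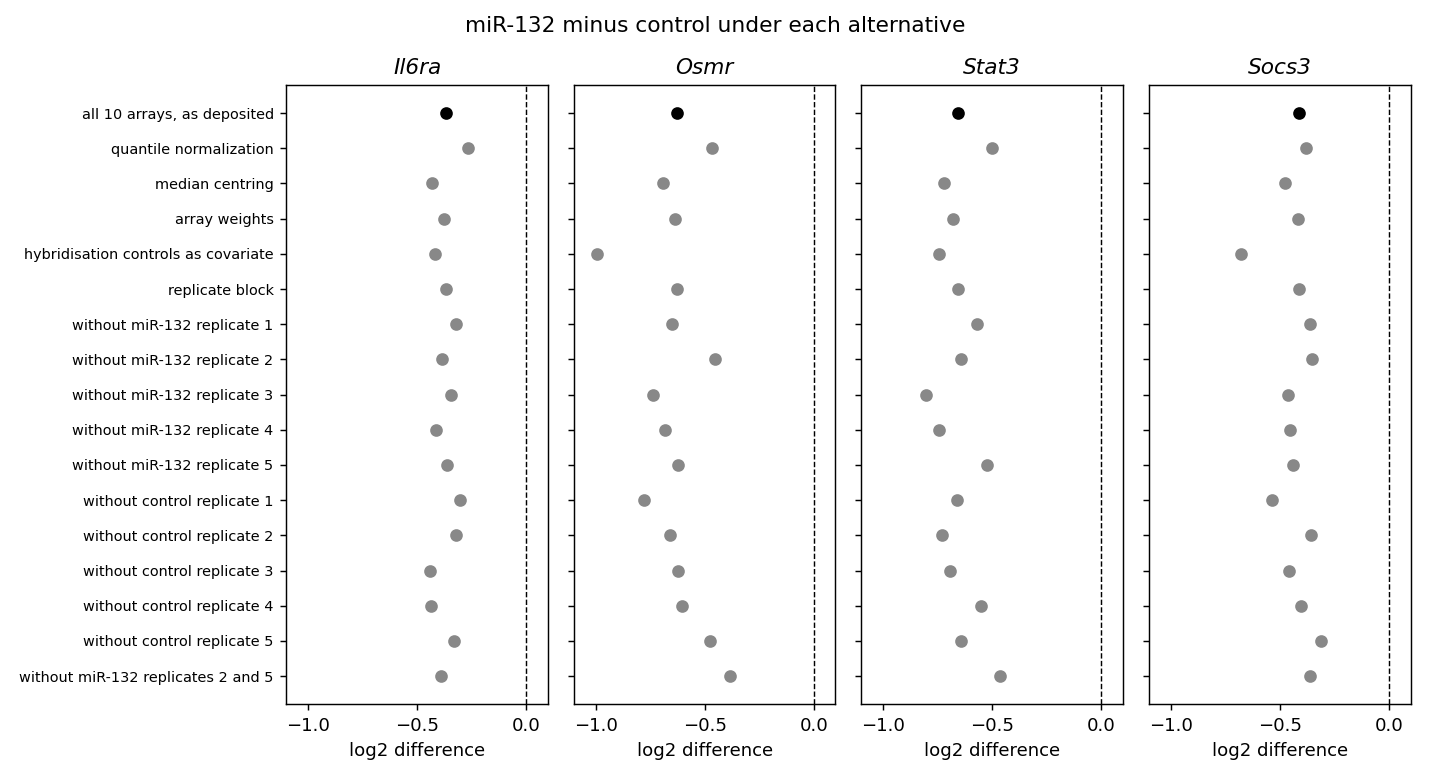
Log2 difference, miR-132 minus control (horizontal axis), of the 4 members that lay under the mean of controls on every miR-132 array. Values are for all 10 arrays as deposited (black) and for each alternative normalization, covariate, block or left-out array (grey). Every point lies below 0, between -0.99 and -0.27. The covariate itself differs between the groups.

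Because Socs3 is transcribed in answer to the pathway, its level was compared with that of each other member across the 10 wounds, 8 relations in all. It went most closely with Osmr, with Pearson's r = 0.866 (permutation p of 0.00091, adjusted p of 0.00728) and Spearman's rho = 0.915 (permutation p of 0.00048, adjusted p of 0.0038). Without the 2 arrays farthest from the Osmr median r was 0.735 over 8 arrays. Since both genes averaged lower with miR-132, deviations from each group's mean were also compared, and there r was 0.779 (exact permutation within groups, p of 0.0112, adjusted p of 0.0447). After quantile normalization the within-group adjusted p was 0.133.

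Osm went with Socs3 within the groups. Its r on deviations from the group means was 0.903 (exact permutation within groups, p of 0.0015, adjusted p of 0.0117), and 0.897 after quantile normalization (adjusted p of 0.0133). Pooled over the 10 arrays after that normalization, r was 0.585 (permutation p of 0.0729, adjusted p of 0.291) and rho 0.624 (permutation p of 0.0601, adjusted p of 0.240). Without the 2 arrays then farthest from the Osm median, control replicate 1 and miR-132 replicate 1, r was 0.543. Pooled over the 10 arrays as deposited, r was 0.629 (permutation p of 0.0474, adjusted p of 0.190) and rho 0.721 (permutation p of 0.0234, adjusted p of 0.0934). Leaving out control replicate 1 and miR-132 replicate 4 gave r = 0.888. For Il6, r with Socs3 was 0.339 (permutation p of 0.336, adjusted p of 0.488), for Stat3 0.564 (permutation p of 0.0909, adjusted p of 0.243) and for Il6ra 0.483 (permutation p of 0.157, adjusted p of 0.314), none past the threshold. The remaining relations, with Lif, Il11 and Il6st, had r between -0.289 and 0.296. With 5 wounds, a single group is too small for a correlation of its own. Arrays share any difference in signal range, which also enters these values.

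**Figure D4:**
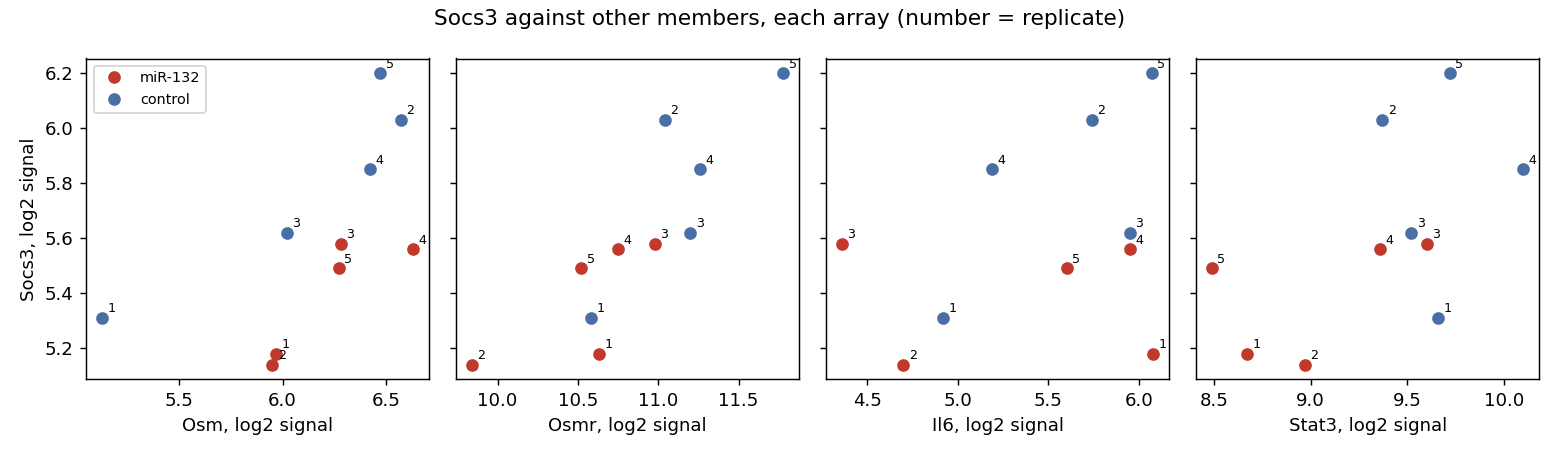
Socs3 log2 signal (vertical axis) against that of Osm, Osmr, Il6 and Stat3 (horizontal axes) on each array, miR-132 in red and control in blue, numbered by replicate. Socs3 is higher where Osmr is higher across the 10 arrays and where Osm is higher inside each group, and scatters against Il6.

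The Socs3 promoter is printed because STAT dimers read palindromic sites of the form TTCNNNGAA. The stretch covers the 250 bases before the gene start used in the RefSeq table, chr11:117969367-117969616 on the minus strand of GRCm38.p6, with the match in capitals.
Socs3 promoter: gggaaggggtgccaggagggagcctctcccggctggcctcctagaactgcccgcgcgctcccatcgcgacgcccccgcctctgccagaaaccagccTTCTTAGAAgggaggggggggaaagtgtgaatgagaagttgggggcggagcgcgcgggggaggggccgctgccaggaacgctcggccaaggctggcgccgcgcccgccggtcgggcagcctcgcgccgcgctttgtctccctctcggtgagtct
The match, TTCTTAGAA, begins at position -154 from that start. TTCNNNGAA equals its own reverse complement, so a search of 1 strand covers both, and 8.3% of the 32851 promoter windows of 300 bases in the table hold it. Of the 8 members with a window, Socs3 was the only match, and the narrower form TTCCNGGAA, present in 1.15% of windows and contained in the wider motif, was in none of them. A match of letters is no evidence of binding.

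Of 12 further family genes, 9 had a feature naming 1 gene and 4 passed the level filter. Of these 1 averaged lower and 3 higher (median log2 difference 0.09, against -0.02 over all genes tested). Lifr, the chain for LIF, was the brightest of them at 9.002 ± 0.42 in miR-132 wounds and 8.706 ± 0.42 in control wounds (log2 signal, SD, n = 5 each), a difference of 0.30 ± 0.26 (SE) with an interval of -0.27 to 0.87. The ligand genes Clcf1 (-0.23 ± 0.12) and Ctf1 (0.17 ± 0.09) and the ciliary neurotrophic factor receptor gene Cntfr (0.00 ± 0.07) had log2 differences on both sides of 0 (SE, n = 5 per group). At an unadjusted p under 0.05 limma held 0 of the 4.

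Of 11 measured JAK-STAT transducers, 10 averaged lower and 1 higher, each by under 0.35 on the log2 scale, with a median of -0.11. Among all genes tested 53.6% averaged lower. At an unadjusted p under 0.05 limma held 0 of the 11, against 8.09% of all genes. Jak1, the kinase most used by gp130, measured 11.72 ± 0.31 in miR-132 wounds and 11.96 ± 0.11 in control wounds (SD, n = 5 each), a log2 difference of -0.24 ± 0.16 (SE). Tyk2, another kinase of the complex, differed by -0.10 ± 0.05, Stat6, which serves interleukin-4, by -0.35 ± 0.18, and the docking protein gene Gab1 by -0.17 ± 0.10 (log2, SE, n = 5 per group). Among 13 measured brakes and shedding enzymes 11 averaged lower and 2 higher (median -0.10), beside the same 53.6%. By the unadjusted rule 1 of the 13 was lower, near the 5.61% of all genes. Socs1, the relative of Socs3 induced mainly by interferon, was that gene, with 4.37 ± 0.06 in miR-132 wounds and 4.56 ± 0.11 in control wounds (SD, n = 5 each; limma's p of 0.0114, adjusted p of 0.596). The phosphatase gene Ptpn1 differed by -0.36 ± 0.19, the SUMO ligase gene Pias1 by -0.20 ± 0.14 and Adam17, which sheds the IL-6 receptor, by -0.27 ± 0.19 (log2, SE, n = 5 per group). Without miR-132 replicate 2 the medians of these lists were -0.06 for transducers and -0.02 for brakes and shedding enzymes, and without miR-132 replicate 1 the second was -0.18. After quantile normalization they were -0.0225 for transducers and -0.0256 for brakes and shedding enzymes.

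Of 19 measured STAT3 target genes, 15 averaged lower and 4 higher, with a median log2 difference of -0.25, against 53.6% of all genes tested averaging lower. At an unadjusted p under 0.05 limma held 6, all lower, beside 5.61% of all genes and 8.3% of the brighter ones. None passed adjustment (limma's adjusted p of 0.596 for each of the 4 named by rule). Bcl3, a nuclear partner of NF-kB, measured 5.47 ± 0.15 in miR-132 wounds and 5.87 ± 0.25 in control wounds (SD, n = 5 each), a log2 difference of -0.40 ± 0.12 (SE). Bcl2l1, which encodes the survival protein Bcl-xL, differed by -0.25 ± 0.09, the adhesion molecule gene Icam1 by -0.31 ± 0.11 and the repressor gene Bcl6 by -0.29 ± 0.11 (log2, SE, n = 5 per group). Each lay under the mean of controls in 5 of 5 miR-132 wounds, which is no further support, since they were chosen by the smallest p in the list. The remaining members at that level, named after their values were seen, were the survival kinase gene Pim1 at -0.56 ± 0.22 and Cebpb, a factor of the acute phase response, at -0.36 ± 0.14. Several of these genes also answer NF-kB. After quantile normalization the list's median was -0.10, and without miR-132 replicate 2 it was -0.17. The marker lists did not all stay level beside it. Neutrophil markers averaged lower for 9 of 10 (median -0.43, or -0.55 over the 8 below the signal limit). Keratinocyte markers averaged lower for 8 of 10 (median -0.20), and for 6 of the 6 that stayed below the limit on every array (median -0.47). Of those 6, 3 were lower at an unadjusted p under 0.05 by limma, beside 5.61% of all genes and 8.3% of the brighter ones. They were the basal transcription factor gene Trp63, the desmosome gene Dsp and the cadherin gene Cdh1 (adjusted p of 0.596 by limma for each), named after their values were seen. Dsp stood at 19.23 to 19.26 on control arrays (SD 0.02) and at 18.30 to 19.32 on miR-132 arrays. The fibroblast marker Dcn stood at 17.88 on every control array. Whether such signals level off below the limit was not tested. The part of neutrophils and keratinocytes in the list of STAT3 targets was not tested.

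Acute phase genes, STAT3-driven in liver and also expressed in wounds, averaged lower for 9 of 11 (median -0.21), where 53.6% of all genes did, with 0 at an unadjusted p under 0.05 by limma. Lcn2, a siderophore-binding protein of neutrophils and keratinocytes, measured 9.61 ± 1.19 in miR-132 wounds and 10.50 ± 1.28 in control wounds (SD, n = 5 each), a log2 difference of -0.89 ± 0.71 (SE). The serum amyloid genes differed by -0.64 ± 0.47 (Saa1), -0.24 ± 0.29 (Saa2) and -0.58 ± 0.81 (Saa3), on the log2 scale with the SE, and in each of them the groups overlapped. The list's median changed sign in 3 alternatives, at 0.02 with miR-132 replicate 5 left out, 0.07 with replicates 2 and 5 of that group left out and 0.31 when the hybridisation spike-ins entered the fit. Without control replicate 2 it was -0.40. The spike-in covariate itself differs between the groups.

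Genes reported to answer oncostatin M in human keratinocytes, some raised and some lowered there, numbered 11, of which 4 (S100a8, S100a9, Krt10 and Krt1) reached the table's upper limit of 19.93 and so give only a bound. Of the other 7, 6 were lower on average and 1 higher (median -0.26), where 53.6% of all genes averaged lower. Since the list mixes genes raised and lowered there, this count gives no direction of a response. By limma 0 of the 7 reached an unadjusted p under 0.05. S100a7a, an antimicrobial S100 protein, measured 8.91 ± 1.71 in miR-132 wounds and 10.29 ± 0.96 in control wounds (SD, n = 5 each), a log2 difference of -1.38 ± 0.80 (SE). Serpinb3a, a protease inhibitor, measured 14.75 ± 3.67 in miR-132 wounds and 16.74 ± 1.73 in control wounds. Krt1 stood at the limit on all 10 arrays, so its groups could not differ.

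Of the 9 measured genes that induce Il6 and Osm or relay such signals, 9 averaged lower (median -0.27), where 53.6% of all genes did. By limma 3 of them were lower at an unadjusted p under 0.05, where 5.61% of all genes and 8.3% of the brighter ones were, and none passed adjustment. Tnf, a cytokine that induces Il6, measured 5.73 ± 0.25 in miR-132 wounds and 6.51 ± 0.52 in control wounds (SD, n = 5 each), a log2 difference of -0.78 ± 0.24 (SE, limma's unadjusted p of 0.00813, adjusted p of 0.596). The NF-kB subunit gene Rela differed by -0.64 ± 0.18, Nfkbiz, a nuclear cofactor needed for Il6 induction, by -0.82 ± 0.27 and the cyclooxygenase gene Ptgs2 by -0.91 ± 0.53 (log2, SE, n = 5 per group). Il6 itself, as given above, did not show a difference beyond its spread. With the hybridisation spike-ins, which differ between the groups, in the fit the list's median was -0.89. Without control replicate 1 it was -0.68, without miR-132 replicate 4 it was -0.56 and without miR-132 replicate 2 it was -0.14.

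**Figure D5:**
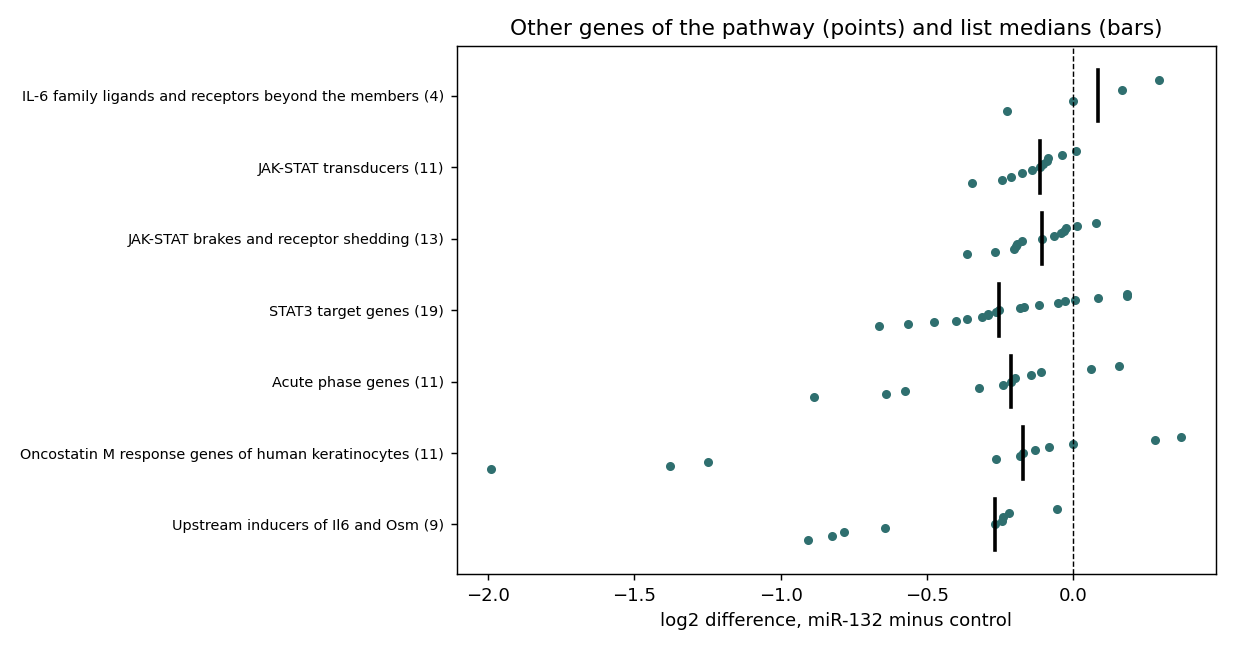
Log2 difference, miR-132 minus control (horizontal axis), of each measured gene in 7 lists around the pathway (points, with the number of genes in brackets), and the list median (black bar). Medians run from -0.27 for upstream inducers to 0.09 for the further family genes, and the widest spread is among oncostatin M response genes. That list is drawn with its 4 genes at the signal limit, whose points are only bounds. Its median is -0.17 with them and -0.26 without.

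The genes whose levels went most closely with Osm over the 10 arrays, among 17641, were Smkr-ps (r = 0.901, rho = 0.782), Il1b (r = 0.900, rho = 0.830), Samsn1 (r = 0.878, rho = 0.782) and Irgq (r = 0.864, rho = 0.564). Il1b is the interleukin-1 beta of myeloid cells and Samsn1 an adaptor of blood cells. For Il6 they were the matrix and stromal genes Mfap2 (r = 0.936, rho = 0.701), Mmp2 (r = 0.934, rho = 0.888) and Lamc1 (r = 0.924, rho = 0.900), with Ccpg1 (r = 0.925, rho = 0.979). For Socs3 they were Cyth1 (r = 0.969, rho = 0.912), the immediate early gene Ier3 (r = 0.963, rho = 0.915), Ehd1 (r = 0.940, rho = 0.863) and the niacin receptor gene Hcar2 (r = 0.924, rho = 0.939). These are the highest of many correlations over the same 10 arrays, given as a description.

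The tissue markers of wound-edge skin were present. The keratins Krt1, Krt5 and Krt14 reached the signal limit in both groups, and the fibroblast gene Col3a1 averaged 18.25 ± 0.67 in miR-132 wounds and 18.53 ± 0.17 in control wounds (log2, SD, n = 5 each). The mean log2 level of 12 macrophage and monocyte markers ran from 11.53 to 12.85 in miR-132 wounds and from 11.39 to 12.28 in control wounds, with 4 markers lower and 8 higher. Their summed signal, 19.8 to 20.1 in miR-132 wounds and 19.8 to 19.96 in control wounds on the log2 scale, is mostly that of Lyz2, which lies near the limit at 19.79 in miR-132 wounds and 19.77 in control wounds. Over 12 neutrophil markers, 2 of them (Ltf and Ngp) below the level filter, it ran from 20.4 to 20.93 in miR-132 wounds and stood at 20.93 in control wounds, where S100a8 and S100a9 were at the limit. Adipocyte markers averaged higher for 9 of 9 (median 0.43) and muscle markers lower for 9 of 10 (-0.27), where 53.6% of all genes averaged lower. By limma 0 of either list reached an unadjusted p under 0.05. The mean adipocyte marker level ran from 8.93 to 12.60 in miR-132 wounds and from 8.64 to 11.58 in control wounds. For muscle markers it ran from 9.70 to 13.02 and from 9.76 to 12.57. Endothelial (6 lower, 1 higher), T and NK cell (1 lower, 5 higher), mast cell (1 lower, 7 higher) and fibroblast markers (5 lower, 4 higher) had medians between -0.10 and 0.12. The span between the 10th and 90th percentile of an array was 4.41 to 4.92 in miR-132 wounds and 4.81 to 5.03 in control wounds, and the hybridisation spike-ins averaged 10.80 ± 0.19 in miR-132 wounds and 10.54 ± 0.07 in control wounds (SD, n = 5 each).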

How the data were processed

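RNA of 10 wound samples, 5 per group and 1 mouse each per the series' design text, was hybridised to Affymetrix mouse Clariom D arrays (150 ng per sample, per the labels' protocols). Per the submitters' processing notes, RMA in Affymetrix Expression Console 1.4 made the authors' values. The deposited values are taken as log2 signal from their range and their shared limit of 19.93, the log2 of 1000000. Their genome build was not given in the sources used.

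All 10 columns matched a sample and 0 were left unmatched. Of 72688 features, 31216 named 1 gene, 1534 several and 39938 none in the platform annotation. Symbols were updated through RefSeq gene identifiers (GRCm38.p6, 1439 features), and the brightest feature was kept for 364 genes with several. Genes with a mean above 4.17, the median over all features, were tested with limma 3.58.1 in R 4.3.3 (intensity trend, two-sided, no covariates). The fit was tested on simulated data. Exact permutation p-values use all 252 splits of the arrays, and pooled correlations 100000 resamples. The members, the pathway lists and the marker lists (192 genes, 182 matched, 4 sharing a feature and 6 unmatched) were chosen with earlier results of these data known, so counts over them are descriptions without a list test. Named genes were the members, the 4 smallest p-values per pathway list, the 4 closest correlates of Osm, Il6 and Socs3, and the brightest markers. The number of arrays limits the precision.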

Additional observations from a re-analysis of the deposited data

Results flagged for a closer look

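In the members and the named pathway genes, 74 groups of 5 arrays were examined for a single array far from the rest, and 5 were found, where chance marks about 1 group in 20. Il6st stood at 11.83 on control replicate 5, against 11.45 to 11.56 on the other control arrays. Stat6 stood at 8.70 on miR-132 replicate 3, against 7.97 to 8.10 on the other miR-132 arrays. Serpinb3a was low at 13.76 on control replicate 2, with the other control arrays at 16.96 to 18.23. The remaining cases lie at the signal limit of 19.93, where values are cut off: S100a8 at 19.29 on miR-132 replicate 5, with the other miR-132 arrays at the limit, and Krt10 at 18.43 on control replicate 4, with the other control arrays at 19.58 to 19.93.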

How the results depend on the processing

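The differences of Il6ra, Osmr, Stat3 and Socs3 kept their direction under every alternative run, and no member passed adjustment under any. The spike-in covariate is partly confounded with the group, so values from the fit with it cannot separate the covariate from miR-132. Leaving out single arrays gave -0.44 to -0.30 for Il6ra, -0.78 to -0.45 for Osmr, -0.80 to -0.52 for Stat3 and -0.54 to -0.31 for Socs3. Over the alternatives limma's adjusted p of each of them reached 0.836 at its highest. Small differences changed sign. Il6 ranged from -0.42 to 0.0085 (without miR-132 replicate 3), Osm from -0.15 (without control replicate 1; -0.0045 without miR-132 replicate 4) to 0.21 and Lif from -0.0665 (without miR-132 replicate 2; -0.0015 without control replicate 2) to 0.13. Osm was -0.18 with the hybridisation spike-ins as covariate, Lif 0.29 with that covariate (limma's adjusted p 0.581, its lowest), -0.012 with median centring, -0.0089 with array weights and -0.0073 without miR-132 replicates 2 and 5, Il11 -0.0030 after quantile normalization and -0.0093 without those replicates, Il6st 0.0282 after quantile normalization (-0.24 to -0.01 when single arrays were left out), and the relation of Socs3 with Il11 r = 0.147 after it. Genes past the threshold numbered 0 except without miR-132 replicate 3 (52), a range of 0 to 52. Genes at an unadjusted p under 0.05 numbered 1427, 2635 with no level filter (more genes tested), 933 with the stricter one (fewer tested) and 949 (without control replicate 5) to 2482 (without miR-132 replicate 3). The median of STAT3 targets was -0.10 after quantile normalization, -0.13 with array weights and -0.30 to -0.17 when arrays were left out. That of upstream inducers was -0.89 with the covariate and -0.68 to -0.14 when arrays were left out, and that of further family genes 0.23 under the stricter filter. Acute phase genes had a median of 0.31 with the covariate, 0.0747 without miR-132 replicates 2 and 5 and -0.40 to 0.02 when arrays were left out. After quantile normalization the medians of transducers and of brakes were -0.0225 and -0.0256. Unless the construction shows it, the cause was not tested. With the replicate number as a block (replicate block), 0 genes passed and the count at an unadjusted p under 0.05 was 1273. Arrays of the same number correlated at -0.03 to 0.16 in their deviations. The closest control array bore the same number for miR-132 replicates 1 and 2 and another number for replicates 3, 4 and 5. These values cannot show whether the numbers pair the wounds. Each member had 1 feature, so averaging features could not be run, and Il6, Lif, Il11 and Socs3 fell below the stricter filter. Dim features such as Lif and Il11 lie near background, which limits what can be read from them.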

Other observations

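Single wounds stood out across the members. On control replicate 5, 0 of the 9 members lay below the control mean, and it had the highest control level of Il6, Il6st, Osmr and Socs3. On control replicate 1, 7 of 9 lay below that mean, with Osm, Osmr and Socs3 at the bottom of the control range while Il6ra was at its top. Among miR-132 wounds the number below the control mean was 5 to 7 of 9.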
